A study of Caenorhabditis elegans with 16 samples.

Results

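Translation factors are the proteins that bring mRNA, ribosome and tRNA together and move the ribosome from start codon to stop codon. RNA of 29 of their genes, out of 24654 genes counted, was followed in arrested L1 larvae of Caenorhabditis elegans before and after feeding. The 29 genes are all rows of the gene count table whose symbol starts with eif-, eef-, eft-, ife-, ifg-, iff-, iftb-, erfa- or etf- followed by a number. By the meaning of their symbols, 10 encode subunits of the initiation factor eIF3, 6 the cap-binding eIF4E proteins and their scaffold eIF4G, 3 other initiation factors, 1 a subunit of eIF2, 2 eIF5A, 5 elongation factors and 2 release factors. All 29 passed the filter on low counts and were tested. Some factors carry symbols of another kind, among them egl-45 (eIF3a), inf-1 (eIF4A) and iffb-1 (eIF5B), and these are described apart. The gene eef-1A.2, a close copy of eef-1A.1, was not analysed here, and eef-1A.1 could hold some of its reads.

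The larvae were of 2 strains, N2 wild type and cdk12-as, whose CDK-12 kinase is altered so that the compound 3MB-PP1 can inhibit it. CDK-12 phosphorylates the large subunit of RNA polymerase II during transcription. Embryos from bleached worms hatched in medium without food and stayed at 20 °C for at least 12 h, which arrests them as L1 larvae. Of each strain, larvae were taken at that point (start), after 4 h more of starvation with 0.1% DMSO (starved), after 4 h with OP50 bacteria and 0.1% DMSO (fed), or after 4 h with OP50 bacteria and 1 µM 3MB-PP1 dissolved in DMSO (fed with inhibitor). There was no starved group with the inhibitor. Each of the 8 groups had 2 libraries, 16 in all, made from whole larvae, and the labels name no separate cultures behind them. A p-value here therefore sets a difference against the scatter of these libraries, which may be technical. In whole larvae fewer cells of a type and less RNA per cell cannot be told apart.

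Gene counts summed to 18588196 to 56644943 per library, and 20.3 to 50.7% of them fell on rrn-2.1, a gene of ribosomal RNA. That share followed the replicate number: in every group it was higher in replicate 1 (34.79 to 50.7%) than in replicate 2 (20.3 to 33.39%). The other genes held 13737620 to 36495804 counts, and the 29 translation factor genes 2.481 to 3.887% of those. Levels below are counts scaled to library size (CPM) with library sizes adjusted by TMM, and levels compared between genes are CPM per kilobase of exon length. Tests are edgeR quasi-likelihood F tests, 2-sided, over the 15845 genes that passed the filter, and "rose" or "fell" is written where the Benjamini-Hochberg adjusted p was under 0.05. The cdk-12 transcript passed the threshold in no comparison (log2 change with inhibitor in cdk12-as -0.37 ± 0.15 SE, adjusted p = 0.169), and since the strain carries an altered protein its level does not check the labels. Of the marker lists, 10 of 10 germline, 7 of 7 neuron, 5 of 7 muscle, 5 of 7 intestine, 3 of 6 epidermis and 3 of 5 pharynx genes were counted. None of them was at 0 in both libraries of a group, while 4 markers of yolk and later stages summed to 0.392 to 2.28 CPM.

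Initiation starts when the small ribosomal subunit, held by eIF1, eIF1A, eIF3 and eIF2 with the initiator tRNA, is led to the capped end of an mRNA by eIF4E and eIF4G. Elongation factor eEF1A then brings each charged tRNA, eEF1B reloads eEF1A with GTP, eEF2 moves the ribosome by a codon, and eRF1 with eRF3 ends the chain at a stop codon. In arrested L1 larvae growth and cell division are paused, and food restarts both.

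Of the 5 elongation factor genes 4 had, with the eIF5A gene iff-2, the highest levels per length in starved wild type. In starved wild type eef-1A.1, which encodes eEF1A, stood at 4825 and 5148 CPM per kilobase. The next in order were eef-2 (eEF2) with 2452 and 2501, iff-2 (the somatic eIF5A) with 1556 and 1762, eef-1G (the gamma subunit of eEF1B) with 1022 and 1071, and eef-1B.1 (another eEF1B subunit) with 955 and 962 CPM per kilobase. These 5 levels did not overlap between neighbours in the order. Then came eif-1.A with 233 and 256 CPM per kilobase and eif-1 with 145 and 166, and the latter overlapped with eif-3.B, the highest eIF3 subunit, at 146 and 153.9. Below these 3 initiation genes came the remaining elongation gene, eef-1B.2, at 141 and 140.4 CPM per kilobase. At the low end were iff-1 (9.9 and 10.8), ife-4 (8.3 and 8.5) and ife-5 (2.87 and 3.41 CPM per kilobase), also without overlap. Every one of the 8 groups had the same leading genes down to eif-1 in the same order, and the same 3 genes at the bottom, with ife-4 above iff-1 in 2 wild-type and 2 cdk12-as groups, the fed groups with and without inhibitor. The neighbours eef-1G and eef-1B.1 overlapped at the start in cdk12-as. Together eef-1A.1 and eef-2 made up 65.1 to 76.4% of the summed CPM of the 29 genes.

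**Figure D1:**
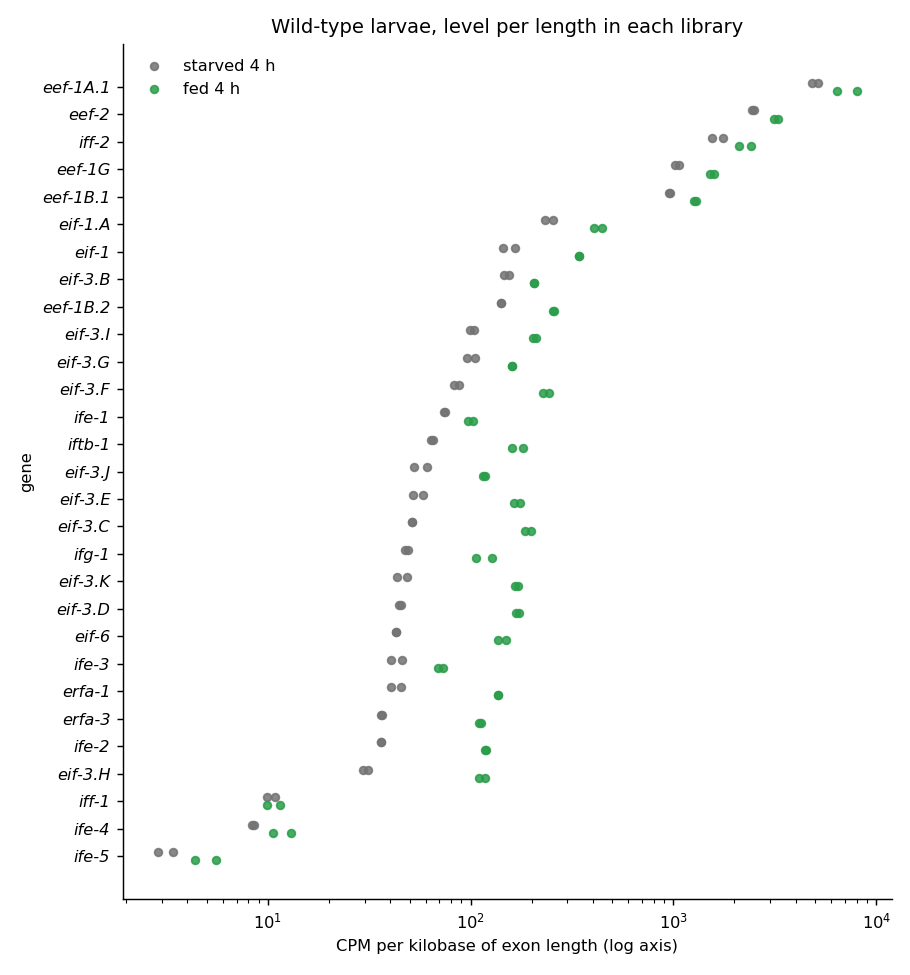
Level per length of the 29 translation factor genes in starved and fed wild-type larvae, in CPM per kilobase of exon length on a log axis, with 1 point per library. From eef-1A.1 at 4825 and 5148 to ife-5 at 2.87 and 3.41 CPM per kilobase in starved larvae the genes are spread along the axis, and the eIF3, eIF4 and release factor genes in the middle lie further right when fed.

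Feeding asks which transcripts the larvae raise as they leave arrest. In wild type 25 of the 29 genes rose within 4 h of food and none fell, where 24.4% of all genes tested rose and 21.5% fell. The median log2 change was 1.02 for the 29 genes and -0.01 for all genes tested. All 10 eIF3 subunits, all 6 cap-binding and eIF4 genes, the 3 other initiation factors, the eIF2 subunit and both release factors rose, against 3 of 5 elongation factors and neither eIF5A gene. In the fit with a replicate block the other 2 elongation genes, eef-1A.1 (adjusted p = 0.00172) and eef-2 (adjusted p = 0.00887), and the eIF5A gene iff-2 (adjusted p = 0.000953) passed too. The eIF3 genes had a median log2 change of 1.54, the release factors 1.65 and the elongation factors 0.53. Muscle markers moved with food as well: 4 of 5 measured muscle genes fell in wild type. The sum of the 5 went from 7605 and 7803 CPM starved to 3139 and 3891 CPM fed, with no marker at 0 in both libraries of a group. Intestine markers summed to 516 to 577 CPM starved and 1124 to 1337 CPM fed, though 2 of 5 rose and 2 fell. All 3 pharynx markers fell (83.2 to 105 CPM summed when starved, at most 60.0 CPM fed), 2 of 7 neuron markers fell (1772 to 1775 against 1467 to 1488 CPM) and 2 of 3 epidermis markers rose (78.4 to 89.2 against 98.2 to 109 CPM). Of 9 germline markers tested 2 rose and 1 fell. The part of these in the rises was not tested.

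How the libraries were scaled bore on these counts. Scaled by total counts instead of TMM, the median of all genes moved by -0.37 in wild type, the 29 genes kept a median of 0.66 with 28 positive and 1 (iff-1) negative, and 12 of the 25 calls remained. Those 12 were eif-3.C, eif-3.D, eif-3.E, eif-3.F, eif-3.H, eif-3.K, eif-6, erfa-1, erfa-3, ife-2, ifg-1 and iftb-1, and they passed under every alternative run. With rrn-2.1 left out of the totals the median of all genes moved by -0.25, and eef-1B.1, eif-3.B, ife-1, ife-4 and ife-5 did not pass.

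**Figure D2:**
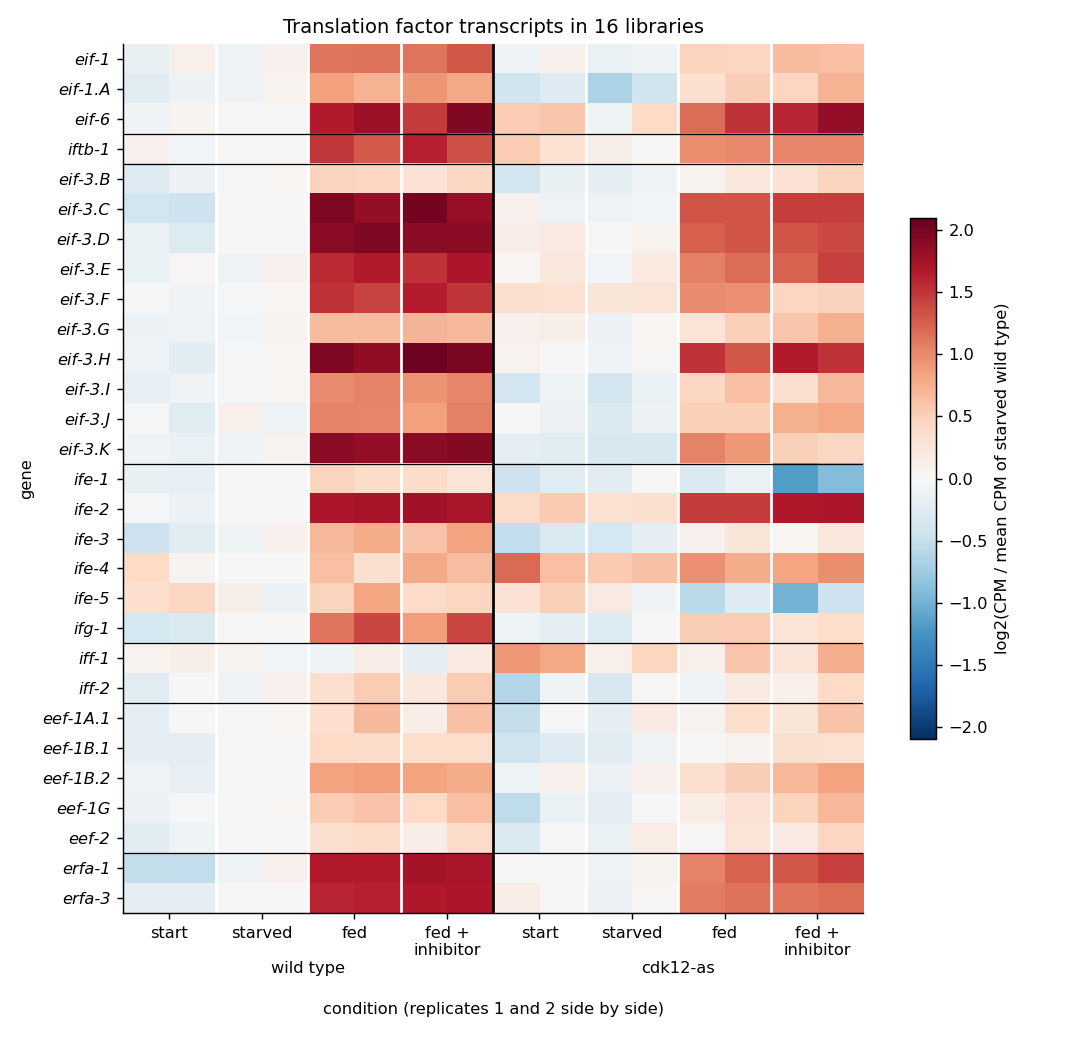
Levels of the 29 translation factor genes in all 16 libraries, as log2 of CPM over the mean CPM of starved wild type; rows are genes grouped by role and columns are libraries, with replicates 1 and 2 side by side. The fed wild-type columns are red in nearly all rows, and the estimated change with food was positive for 29 of 29 genes (28 when scaled by total counts). The fed cdk12-as columns are paler. In cdk12-as with inhibitor ife-1 turns blue, where it was at 22.8 and 27.3 CPM against 51.2 to 52.0 CPM in starved wild type.

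The eIF3 complex binds the small ribosomal subunit and holds the other initiation factors to it. Its subunit d, eif-3.D (chromosome III, 8969652 to 8971499, minus strand, ce10), had the largest rise of the 29 in wild type. In wild type eif-3.D stood at 69.5 and 63.4 CPM at the start, 76.3 and 77.6 starved, 286 and 298 fed, and 285 and 285 fed with inhibitor. In cdk12-as eif-3.D stood at 84.5 and 87.9 CPM at the start, 76.1 and 81.1 starved, 184 and 193 fed, and 192 and 202 fed with inhibitor. All fed libraries lay above all starved ones, and the fed cdk12-as libraries lay below the fed wild-type libraries. The log2 change with food was 1.92 ± 0.08 (SE; adjusted p = 8.13e-09), a 3.80-fold rise, in wild type and 1.26 ± 0.08 (adjusted p = 6.77e-07), 2.40-fold, in cdk12-as.

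Another 3 eIF3 subunits came close to it. In wild type eif-3.H went from 30.8 and 28.7 CPM at the start and 32.4 and 34.3 starved to 129.6 and 121 fed and 137 and 132 fed with inhibitor. In cdk12-as eif-3.H went from 35.0 and 33.4 CPM at the start and 31.4 and 34.0 starved to 95.4 and 81.9 fed and 106 and 95.1 fed with inhibitor. The fed groups of the strains did not overlap, and the rise was 1.91 ± 0.10 log2 (adjusted p = 2.35e-08) in wild type and 1.44 ± 0.10 (adjusted p = 8.25e-07) in cdk12-as. In wild type eif-3.C went from 106 and 103 CPM at the start to 139 and 138 starved, 536 and 500.5 fed, and 558 and 494 fed with inhibitor. In cdk12-as eif-3.C went from 148 and 128 CPM at the start to 128 and 133 starved, 345 and 345 fed, and 377 and 379 fed with inhibitor. It was thus the highest of the 4 in CPM, with rises of 1.90 ± 0.10 (adjusted p = 2.64e-08) and 1.40 ± 0.10 (adjusted p = 1.02e-06). For eif-3.K the wild-type values were 31.5 and 30.2 CPM at the start, 31.5 and 34.9 starved, 124 and 119.3 fed, and 123 and 126 fed with inhibitor. The cdk12-as values of eif-3.K were 29.0 and 28.2 CPM at the start, 26.4 and 26.4 starved, 68.2 and 62.5 fed, and 47.2 and 44.7 fed with inhibitor. Fed cdk12-as larvae thus held less eif-3.K than fed wild type in all libraries, and less again with inhibitor. The food response of eif-3.K was 1.88 ± 0.08 log2 (adjusted p = 8.13e-09) in wild type and 1.31 ± 0.08 (adjusted p = 4.44e-07) in cdk12-as.

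Not all eIF3 subunits moved by the same amount. In wild type eif-3.F was at 75.4 and 71.6 CPM at the start, 73.0 and 77.3 starved, 216 and 201 fed, and 235 and 212 fed with inhibitor. In cdk12-as eif-3.F was at 94.4 and 93.8 CPM at the start, 89.2 and 90.8 starved, 150.1 and 146 fed, and 103 and 105 fed with inhibitor. The rise with food was 1.47 ± 0.08 log2 (adjusted p = 3.80e-08) in wild type and 0.72 ± 0.08 (adjusted p = 3.08e-05) in cdk12-as. By contrast eif-3.B, the eIF3 subunit highest per length in starved wild type, was at 318 and 335 CPM in starved and 449 and 447 CPM in fed wild type, a rise of 0.46 ± 0.11 log2 (adjusted p = 0.00438). In cdk12-as eif-3.B was at 287 and 311 CPM starved and 342 and 382 CPM fed, with a log2 change of 0.28 ± 0.11 that did not pass (adjusted p = 0.0858, and 0.00882 with a block for the replicate number; 0.00882 to 0.761 over all alternatives). The remaining subunits eif-3.E, eif-3.G, eif-3.I and eif-3.J rose by 0.67 to 1.62 log2 in wild type and by 0.43 to 1.03 log2 in cdk12-as, where the call of eif-3.G was lost without fed replicate 2 or starved replicate 1, as was that of the elongation gene eef-1B.2.

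**Figure D3:**
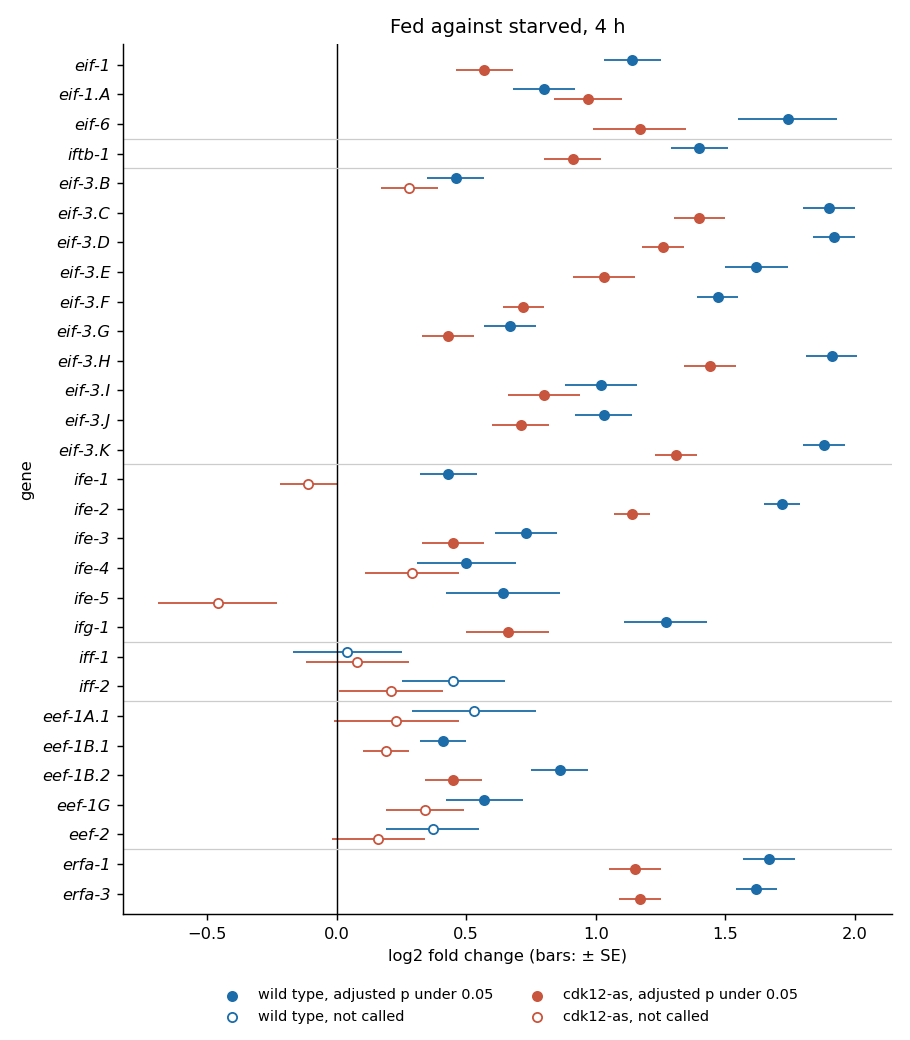
Log2 fold change of fed over starved larvae at 4 h for the 29 genes in wild type (blue) and cdk12-as (red), with bars of 1 SE; filled points passed the adjusted p threshold of 0.05 and open points did not. In wild type 25 points are filled and in cdk12-as 19, and the red points lie to the left of the blue ones for 27 genes (18 when libraries are scaled by total counts).

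Among the other initiation factors, eif-6, whose product keeps the large ribosomal subunit from joining too early, rose most. In wild type eif-6 was at 30.1 and 33.0 CPM at the start, 31.9 and 31.8 starved, 101 and 111 fed, and 88.6 and 122 fed with inhibitor. In cdk12-as eif-6 was at 46.2 and 47.7 CPM at the start, 29.5 and 42.8 starved, 71.7 and 90.9 fed, and 96.6 and 115 fed with inhibitor. In each strain all fed libraries lay above the starved ones, and the rises were 1.74 ± 0.19 log2 (adjusted p = 8.29e-06) and 1.17 ± 0.18 (adjusted p = 0.000454). Start codon choice depends on eIF1 and eIF1A. In wild type eif-1 was at 46.0 and 55.0 CPM at the start, 47.7 and 54.7 starved, 112 and 113 fed, and 112 and 127 fed with inhibitor. In cdk12-as eif-1 was at 48.3 and 54.7 CPM at the start, 46.6 and 48.4 starved, 71.0 and 69.9 fed, and 81.5 and 79.5 fed with inhibitor. The fed levels of eif-1 in cdk12-as thus lay between starved and fed wild type, with rises of 1.14 ± 0.11 log2 (adjusted p = 2.54e-06) in wild type and 0.57 ± 0.11 (adjusted p = 0.0015) in cdk12-as. In wild type eif-1.A was at 134 and 145 CPM at the start, 151 and 166 starved, 289 and 263 fed, and 302 and 278 fed with inhibitor. In cdk12-as eif-1.A was at 118 and 132 CPM at the start, 100.3 and 118 starved, 201 and 228 fed, and 216 and 263 fed with inhibitor. Of the genes that rose in wild type it was the 1 whose estimate was larger in cdk12-as, 0.97 ± 0.13 against 0.80 ± 0.12 log2, a difference of 0.18 ± 0.18 that did not pass (adjusted p = 0.645). The beta subunit of eIF2, iftb-1, was at 51.5 and 46.6 CPM at the start, 49.3 and 47.8 starved, 136 and 119.4 fed, and 150.3 and 124 fed with inhibitor in wild type. Its cdk12-as levels were 70.5 and 60.8 CPM at the start, 53.0 and 49.6 starved, 95.5 and 97.5 fed, and 98.7 and 98.6 fed with inhibitor. It rose by 1.40 ± 0.11 (adjusted p = 6.67e-07) and 0.91 ± 0.11 log2 (adjusted p = 6.58e-05).

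The 5 ife genes encode versions of eIF4E, the protein that binds the mRNA cap. In the worm IFE-1, IFE-2 and IFE-5 also bind the trimethylated cap that comes with trans-splicing, IFE-1 is known for its place on germ granules, and ife-4 belongs to the divergent 4EHP type. Since these genes are related in sequence, reads could be split between them, ife-1 and ife-5 above all. The proportions of the 5 differed between starved and fed larvae. In wild type ife-2 was at 24.1 and 22.9 CPM at the start, 24.8 and 24.9 starved, 81.0 and 82.2 fed, and 84.3 and 81.2 fed with inhibitor. In wild type ife-1 was at 46.3 and 45.6 CPM at the start, 52.0 and 51.2 starved, 71.6 and 67.5 fed, and 67.6 and 61.9 fed with inhibitor. The rise of ife-2, 1.72 ± 0.07 log2 (adjusted p = 8.13e-09), was thus far above that of ife-1, 0.43 ± 0.11 (adjusted p = 0.00754). Of the summed CPM of the 5 genes ife-1 made up 43.5 and 45.4% in the starved wild-type libraries and 31.4 and 33.2% in the fed ones. The share of ife-2 went the other way, from 21.1 and 21.6% to 37.6 and 38.2%. In wild type ife-3 was at 24.1 and 27.7 CPM at the start, 30.5 and 34.5 starved, 51.9 and 55.5 fed, and 49.2 and 58.3 fed with inhibitor, and it rose with food by 0.73 ± 0.12 log2 (adjusted p = 0.000356). The rarest were ife-4 at 5.31 and 5.43 CPM starved and 8.34 and 6.79 fed, and ife-5 at 2.07 and 1.74 CPM starved and 2.64 and 3.37 fed. Both passed narrowly in wild type (ife-4 0.50 ± 0.19 log2, adjusted p = 0.0478; ife-5 0.64 ± 0.22, adjusted p = 0.0304), and each lost its call without either starved library or without 1 of the fed ones, with adjusted p over all alternatives of 0.0212 to 0.75 for ife-4 and 0.027 to 0.542 for ife-5. The call of ife-1 was also lost without fed replicate 1 (adjusted p = 0.0528, with a range over all alternatives of 0.00274 to 0.887).

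In cdk12-as ife-2 again had the largest rise of the cap-binding genes, and fed levels of ife-1, ife-2 and ife-3 were below those of wild type. In cdk12-as ife-2 was at 32.8 and 36.2 CPM at the start, 31.1 and 31.3 starved, 68.6 and 69.0 fed, and 80.0 and 80.4 fed with inhibitor. In cdk12-as ife-1 was at 38.1 and 43.9 CPM at the start, 43.6 and 52.1 starved, 41.9 and 46.9 fed, and 22.8 and 27.3 fed with inhibitor. So ife-2 rose with food (1.14 ± 0.07 log2, adjusted p = 5.19e-07), while the starved and fed levels of ife-1 overlapped (-0.11 ± 0.11, adjusted p = 0.546). In cdk12-as ife-3 was at 22.8 and 26.01 CPM at the start, 25.3 and 28.6 starved, 34.7 and 38.8 fed, and 33.3 and 38.5 fed with inhibitor. It rose by 0.45 ± 0.12 log2 (adjusted p = 0.0165), a call lost without fed replicate 2 or starved replicate 1. The levels of ife-4 in cdk12-as were 12.2 and 8.32 CPM at the start, 7.88 and 8.18 starved, 10.5 and 9.21 fed, and 9.53 and 10.6 fed with inhibitor, and those of ife-5 were 2.34 and 2.68, 2.18 and 1.80, 1.28 and 1.58, and 0.953 and 1.41 CPM. The log2 change of ife-5 with food was -0.46 ± 0.23 (adjusted p = 0.154) in cdk12-as.

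The scaffold eIF4G, which ties eIF4E to the other factors, is encoded by ifg-1. In wild type ifg-1 was at 129 and 135 CPM at the start, 164 and 171 starved, 366 and 444 fed, and 308 and 445 fed with inhibitor. In cdk12-as ifg-1 was at 156 and 147 CPM at the start, 137 and 168 starved, 241 and 242 fed, and 205 and 217 fed with inhibitor. The fed groups of the strains did not overlap, and the rise was 1.27 ± 0.16 log2 (adjusted p = 2.62e-05) in wild type and 0.66 ± 0.16 (adjusted p = 0.0069) in cdk12-as, the latter lost without starved replicate 1.

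The elongation factors and eIF5A had the smallest median changes with food. In wild type eef-1A.1 was at 6058 and 6866 CPM at the start, 6716 and 7166 starved, 8880.5 and 11165 fed, and 7623 and 10578 fed with inhibitor. In cdk12-as eef-1A.1 was at 4886 and 6898 CPM at the start, 6082 and 7813 starved, 7322 and 8935 fed, and 8324 and 10566 fed with inhibitor. Replicate 2 was the higher in all 8 groups, and the same held for eef-1G, eef-2, eif-3.E, eif-3.I, ife-3 and iff-2, whereas none of the 29 genes was lower in replicate 2 in all 8. The change of eef-1A.1 with food was 0.53 ± 0.24 log2 in wild type (adjusted p = 0.0918). Once the replicate number was fitted as a block it passed in wild type (adjusted p = 0.00172), as did eef-2 (0.37 ± 0.18, adjusted p = 0.121, and 0.00887 with the block) and iff-2 (0.45 ± 0.20, adjusted p = 0.0879, and 0.000953 with the block), so that 28 of the 29 genes rose in that fit. Over all alternatives the adjusted p ran from 0.00172 to 0.805 for eef-1A.1, 0.00887 to 0.988 for eef-2 and 0.000953 to 0.893 for iff-2. In cdk12-as none of the 3 passed in either fit, while eef-1G (0.34 log2, adjusted p = 0.111) passed with the block (adjusted p = 0.00913; 0.00913 to 0.726 over all alternatives). Of the eEF1B subunits, eef-1B.2 went from 250.4 and 249 CPM to 450.0 and 457 CPM with food in wild type (0.86 ± 0.11 log2, adjusted p = 3.59e-05), eef-1G from 1246 and 1306 to 1843 and 1936 CPM (0.57 ± 0.15, adjusted p = 0.00753) and eef-1B.1 from 613 and 618 to 827 and 807 CPM (0.41 ± 0.09, adjusted p = 0.00313). The call of eef-1G was lost without starved replicate 1 (adjusted p = 0.0567, with a range over all alternatives of 0.000126 to 0.712).

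The eIF5A pair differed from each other. The somatic gene iff-2 was at 691 and 797 CPM at the start, 756 and 856 starved, 1028 and 1171 fed, and 939 and 1162 fed with inhibitor in wild type, and at 529 and 768, 635 and 822, 767 and 918, and 863 and 1073 CPM in cdk12-as. The germline gene iff-1 was at 6.39 and 6.66 CPM at the start, 6.35 and 5.82 starved, 5.81 and 6.74 fed, and 5.35 and 6.82 fed with inhibitor in wild type. In cdk12-as iff-1 was at 11.5 and 10.7 CPM at the start, 6.55 and 8.30 starved, 6.52 and 9.07 fed, and 7.32 and 10.3 fed with inhibitor. Starved and fed libraries of iff-1 overlapped in both strains (0.04 ± 0.21 log2 in wild type, adjusted p = 0.91; 0.08 ± 0.20 in cdk12-as, adjusted p = 0.815). The 10 germline markers summed to 80.4 and 80.9 CPM in starved and 117 to 129 CPM in fed wild type.

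Both release factors rose together. In wild type erfa-1, which encodes eRF1, was at 52.7 and 51.6 CPM at the start, 69.8 and 78.5 starved, 236 and 236 fed, and 249 and 242 fed with inhibitor. In cdk12-as erfa-1 was at 73.5 and 74.1 CPM at the start, 69.4 and 78.1 starved, 153 and 174 fed, and 183 and 199.8 fed with inhibitor. Its rise was 1.67 ± 0.10 log2 (adjusted p = 5.61e-08) in wild type and 1.15 ± 0.10 (adjusted p = 4.01e-06) in cdk12-as. For erfa-3, which encodes the GTPase eRF3, starved and fed levels were 58.2 and 57.6 against 176 and 179 CPM in wild type and 52.9 and 58.6 against 124 and 127 CPM in cdk12-as. Those are rises of 1.62 ± 0.08 (adjusted p = 1.98e-08) and 1.17 ± 0.08 log2 (adjusted p = 8.25e-07).

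In cdk12-as larvae fed without inhibitor 19 of the 29 genes rose and none fell, where 15.6% of all genes tested rose and 12.1% fell. All 19 were among the 25 that rose in wild type, and the other 6 were eef-1B.1, eef-1G, eif-3.B, ife-1, ife-4 and ife-5. The median log2 change was 0.66 for the 29 genes and -0.08 for all genes tested, and by role 9 of 10 eIF3 subunits, 3 of 6 cap-binding and eIF4 genes, 3 of 3 other initiation factors, 1 of 5 elongation factors and 2 of 2 release factors rose. Scaled by total counts, 8 of the 19 remained, namely eif-3.C, eif-3.D, eif-3.H, eif-3.K, erfa-1, erfa-3, ife-2 and iftb-1. Muscle marker sums went from 5728 and 7888 CPM starved to 4052 and 4485 CPM fed in this strain, with 3 of 5 called as falls. Of the other lists 2 of 5 intestine markers rose and 1 fell, 2 of 9 germline markers rose, 1 of 7 neuron markers fell, and no epidermis or pharynx marker passed.

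Whether the strains answered food by a different amount was tested as the difference between the 2 log2 changes, cdk12-as minus wild type. The estimate was negative for 27 of the 29 genes with a median of -0.44, against -0.07 for all genes tested. All genes include those that fell with food, so their median does not show whether a smaller rise was particular to the 29. With food 24.4% of all genes rose and 21.5% fell in wild type, against 15.6 and 12.1% in cdk12-as. On the first principal component of all genes tested (41.9% of the variance), wild type went from -29.8 and -26.6 starved to 78.7 and 78.6 fed. There cdk12-as went from -47.7 and -44.4 to 18.8 and 11.5. The difference between strains passed for 8 genes, all with a smaller rise in cdk12-as, where 2.93% of all genes had a difference called in that direction and 3.79% in the other. These were eif-3.F (-0.75 ± 0.11, adjusted p = 0.00224), eif-3.D (-0.66 ± 0.11, adjusted p = 0.00499), ife-2 (-0.58 ± 0.10, adjusted p = 0.00506), eif-3.K (-0.57 ± 0.11, adjusted p = 0.00971), eif-1 (-0.57 ± 0.15, adjusted p = 0.0428), erfa-1 (-0.52 ± 0.13, adjusted p = 0.0379), eif-3.C (-0.50 ± 0.13, adjusted p = 0.0474) and erfa-3 (-0.44 ± 0.11, adjusted p = 0.0315). A block for the replicate number raised the count to 15, the 8 and eif-3.E, eif-3.H, eif-6, ife-1, ife-5, ifg-1 and iftb-1. The number of genes that passed depended on the scaling. By total counts the median of all genes moved by 0.31 to 0.24. There the 29 genes had a median of -0.15 with 18 negative and 11 positive, and none passed. With DESeq2 size factors the median of the 29 was -0.41 with 27 negative, and 4 passed. By total counts without rrn-2.1 the median of all genes moved by 0.16, 27 were negative and eif-3.D, eif-3.F and ife-2 passed. Leaving out single libraries left 3 to 7 genes, the 7 without cdk12-as starved replicate 1 and 3 to 5 without any other, and eif-3.D, eif-3.F and ife-2 passed each time. In the same test 2 of 5 muscle markers had a higher value in cdk12-as and no marker of the other lists passed; the part of this in the result was not tested.

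The same strains compared group by group share libraries with that test. In fed larvae 20 of the 29 genes were lower in cdk12-as than in wild type and none was higher, where 16.2% of all genes tested were lower and 12.7% higher. The largest differences called were in ife-5 (-1.04 ± 0.22 log2, adjusted p = 0.00447), eif-3.K (-0.90 ± 0.08, adjusted p = 9.86e-06), ifg-1 (-0.74 ± 0.16, adjusted p = 0.00391), eif-1 (-0.68 ± 0.11, adjusted p = 0.000604) and ife-1 (-0.65 ± 0.11, adjusted p = 0.00129). Beside these, 2 of 5 muscle markers were higher in fed cdk12-as (4052 to 4485 against 3139 to 3891 CPM summed) and 2 of 9 germline markers lower (88.5 to 120.4 against 117 to 129 CPM), while 1 intestine, 1 neuron and 1 pharynx marker were higher and 1 intestine and 1 epidermis marker lower. Their part was not tested. At the start 10 genes were higher in cdk12-as and none lower, where 12.8% of all genes were higher and 11.6% lower, led by iff-1 (0.76 ± 0.20, adjusted p = 0.0163), ife-4 (0.67 ± 0.18, adjusted p = 0.0191), eif-6 (0.57 ± 0.18, adjusted p = 0.039), ife-2 (0.56 ± 0.07, adjusted p = 0.000176) and erfa-1 (0.50 ± 0.10, adjusted p = 0.00268). Beside these, 3 of 9 germline markers were higher in cdk12-as and none lower (97.5 to 98.6 against 73.6 to 78.9 CPM summed over all 10), as were 1 of 5 intestine and 2 of 7 neuron markers, with 1 neuron marker lower, and their part was not tested. In starved larvae eif-3.F (0.26 ± 0.08, adjusted p = 0.0394) and ife-2 (0.33 ± 0.07, adjusted p = 0.00661) were higher in cdk12-as and eif-1.A (-0.54 ± 0.12, adjusted p = 0.0105) and eif-3.K (-0.33 ± 0.08, adjusted p = 0.0118) were lower, where 9.80% of all genes were higher and 8.28% lower. In that comparison eif-3.F was lost without any of the 4 libraries, eif-3.K without any but wild-type replicate 1, ife-2 without either wild-type library and eif-1.A without wild-type replicate 2 or cdk12-as replicate 1, and the replicate block gave 4 lower genes in place of 2, with eif-3.I (adjusted p = 0.0344) and ife-3 (adjusted p = 0.0115) added, and a further higher one, ife-4 (adjusted p = 0.0175). In fed larvae the block added eef-1G (adjusted p = 0.0101), eif-3.B (adjusted p = 0.00406), eif-3.G (adjusted p = 0.0121), eif-6 (adjusted p = 0.0162) and iff-2 (adjusted p = 0.00477) to the lower genes. At the start it added eif-3.E (adjusted p = 0.0404) and eif-3.G (adjusted p = 0.0339) to the higher genes and eef-1G (adjusted p = 0.0402) as a lower one. By total counts no gene of the 29 passed in any of these 3 comparisons. With single libraries left out 12 to 18 genes were lower in fed larvae, the 12 without cdk12-as replicate 1. At the start 2 to 9 were higher, with 2 left without wild-type replicate 2 and 4 without cdk12-as replicate 1.

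The 4 h of further starvation were set against the start of the 4 h. The starved larvae had 0.1% DMSO and the start larvae none, so time and DMSO cannot be told apart here. In wild type erfa-1 (0.51 ± 0.10 log2, adjusted p = 0.00834) and eif-3.C (0.41 ± 0.10, adjusted p = 0.0258) rose and none fell, where 3.04% of all genes rose and 3.07% fell. The call of erfa-1 was lost without either start library or starved replicate 2, and that of eif-3.C without any of the 4 libraries, while ife-3 passed with the replicate block (0.32 log2, adjusted p = 0.00762). In cdk12-as edgeR called none of the 29 genes, where 2.74% of all genes rose and 3.08% fell. Of the 29, 2 were at an unadjusted p under 0.05, DESeq2 called 1 fall, and the fit with the replicate block called 3 falls (eif-6, iff-1 and iftb-1).

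The inhibitor tests what blocking CDK-12 does in fed larvae, and the wild type given the same compound is its control. In wild type no gene of the 29 passed, and 0 of all 15845 genes did. The changes of the 29 ran from -0.22 to 0.23 log2, and none of them was at an unadjusted p under 0.05. Of all genes 305 were, fewer than that threshold would give without any effect. The test was thus strict here, and small changes could be missed. DESeq2 called 3 genes of all and none of the 29. In cdk12-as 3 of the 29 genes fell and none rose, where 8.37% of all genes tested fell and 3.77% rose, so the count of falls is near that share. The 3 were ife-1, eif-3.F and eif-3.K, with negative estimates under each scaling, and the median over the 29 was 0.18, against 0.06 for all genes tested.

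The cap-binding gene ife-1 (chromosome III, 13343507 to 13344409, plus strand, ce10) fell most. It went from 41.9 and 46.9 CPM fed to 22.8 and 27.3 CPM fed with inhibitor in cdk12-as, and from 71.6 and 67.5 to 67.6 and 61.9 CPM in wild type. The cdk12-as groups did not overlap and the wild-type groups did. Its log2 change in cdk12-as was -0.82 ± 0.11 (adjusted p = 0.000289), a fold of 0.565, and the difference from wild type was -0.72 ± 0.16 (adjusted p = 0.0147). Such a difference in the response to the inhibitor passed for the same 3 of the 29 genes, a count near the share of all genes tested. Of those 6.02% had a lower and 0.915% a higher response in cdk12-as. That difference was lost without the wild-type fed replicate 2 (adjusted p = 0.0753) or the cdk12-as fed replicate 2 (adjusted p = 0.0722), with a range over all alternatives of 0.000923 to 0.55, whereas the fall itself passed under every alternative.

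In eif-3.F (chromosome II, 9331603 to 9333557, plus strand, ce10) the inhibitor took the fed level from 150.1 and 146 to 103 and 105 CPM in cdk12-as. Wild type had 216 and 201 CPM without and 235 and 212 CPM with inhibitor. The change in cdk12-as was -0.51 ± 0.08 log2 (adjusted p = 0.000652) and its difference from wild type -0.61 ± 0.11 (adjusted p = 0.00393). The fed level with inhibitor lay 0.21 ± 0.08 log2 above the starved level of 89.2 and 90.8 CPM, which did not pass (adjusted p = 0.0641, and 0.033 with the replicate block; 0.033 to 0.903 over all alternatives).

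Subunit k, eif-3.K (chromosome V, 12953986 to 12955095, plus strand, ce10), went from 68.2 and 62.5 to 47.2 and 44.7 CPM with inhibitor in cdk12-as and from 124 and 119.3 to 123 and 126 CPM in wild type. The change was -0.51 ± 0.08 log2 in cdk12-as (adjusted p = 0.000593), with a difference from wild type of -0.54 ± 0.11 (adjusted p = 0.00778) that was lost without the cdk12-as fed replicate 1 (adjusted p = 0.052; 0.000836 to 0.626 over all alternatives). By total counts, which moved the median of all genes by -0.21, ife-1 was the 1 fall that remained, and eif-3.F and eif-3.K had adjusted p of 0.129 and 0.113.

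The other 26 genes did not pass in cdk12-as with inhibitor. Of all 29, 22 had a positive and 7 a negative estimate, which by total counts became 11 positive and 17 negative. In the fit with the replicate block 8 genes rose, namely eef-1G (0.35 log2, adjusted p = 0.0152), eef-1B.1 (0.30, adjusted p = 0.0154), eef-1B.2 (0.33, adjusted p = 0.0198), eif-3.G (0.27, adjusted p = 0.0227), eif-3.E (0.22, adjusted p = 0.027), eif-3.B (0.25, adjusted p = 0.0299), eif-6 (0.38, adjusted p = 0.0353) and ife-2 (0.22, adjusted p = 0.0364). Without the block their adjusted p was 0.0579 to 0.308, and over all alternatives it ran up to 0.976 or more in each. Of the eEF1B subunits eef-1B.2 went from 316 and 359 to 403 and 446 CPM and eef-1G from 1415 and 1578 to 1765 and 2061 CPM. The levels of eef-1B.1 went from 609 and 649 to 776 and 769.6 CPM. Among the eIF4E genes, ife-1 made up 26.7 and 28.3% of their summed CPM in fed cdk12-as and 15.6 and 17.3% with inhibitor, while ife-2 went from 41.7 and 43.7% to 50.8 and 54.6%.

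**Figure D4:**
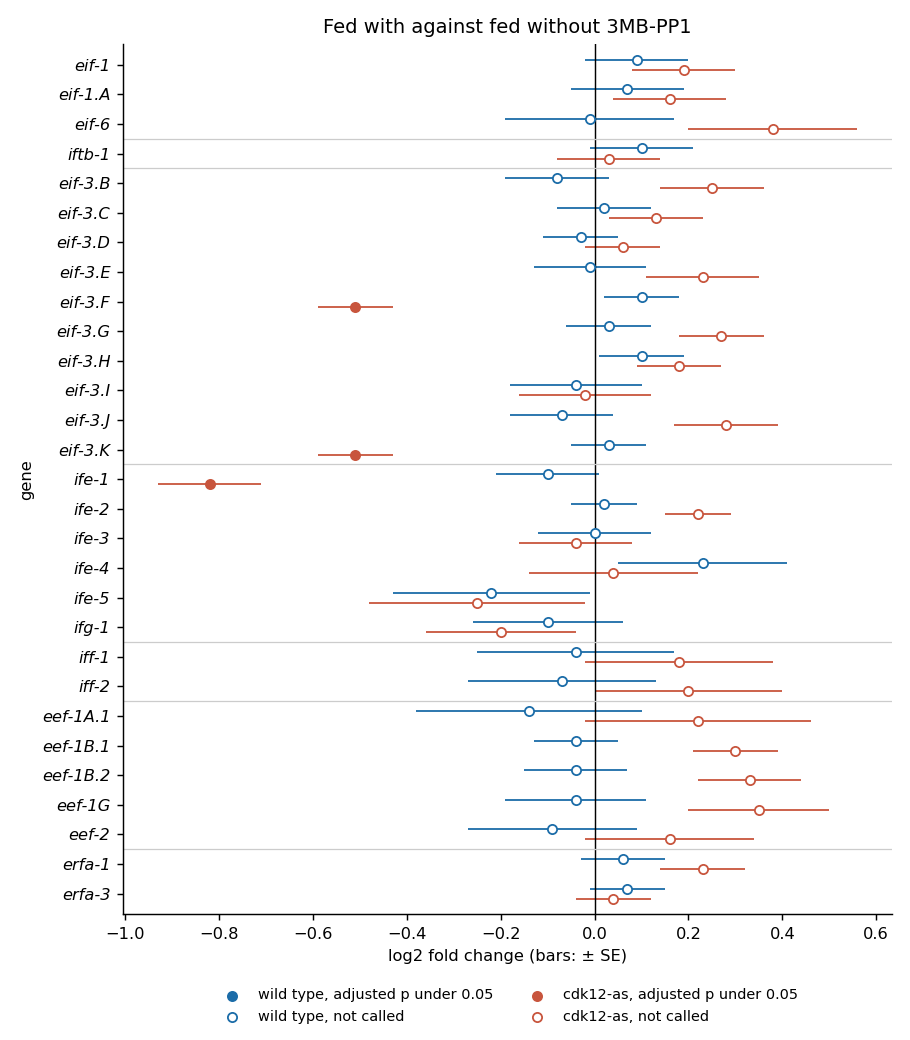
Log2 fold change of larvae fed with 3MB-PP1 over larvae fed without it, in wild type (blue) and cdk12-as (red), with bars of 1 SE; filled points passed the adjusted p threshold of 0.05. The 3 filled points are ife-1 (-0.82), eif-3.F (-0.51) and eif-3.K (-0.51) in cdk12-as, and all blue points lie between -0.22 and 0.23.

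Larvae of cdk12-as fed with inhibitor were also set against starved larvae of the strain. There 21 of the 29 genes rose and 2 fell, where 17.0% of all genes tested rose and 17.1% fell. The largest rises were in eif-3.H (1.62 ± 0.10 log2, adjusted p = 1.62e-07), eif-6 (1.55 ± 0.19, adjusted p = 3.65e-05), eif-3.C (1.54 ± 0.10, adjusted p = 2.31e-07), erfa-1 (1.38 ± 0.10, adjusted p = 4.79e-07) and ife-2 (1.36 ± 0.07, adjusted p = 7.61e-08). The falls were in ife-1 (-0.93 ± 0.12, adjusted p = 4.62e-05) and ife-5 (-0.71 ± 0.23, adjusted p = 0.0284), and that of ife-5 was lost without starved replicate 1 or the inhibitor replicate 1, with a range over all alternatives of 0.00696 to 0.198. Among the rises ife-3 was lost without starved replicate 1 or the inhibitor replicate 2, and ifg-1 without starved replicate 1 or either inhibitor library. With the replicate block eef-1A.1 (0.44 log2, adjusted p = 0.00653), eef-2 (0.31, adjusted p = 0.0293) and iff-2 (0.41, adjusted p = 0.0024) rose as well.

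**Figure D5:**
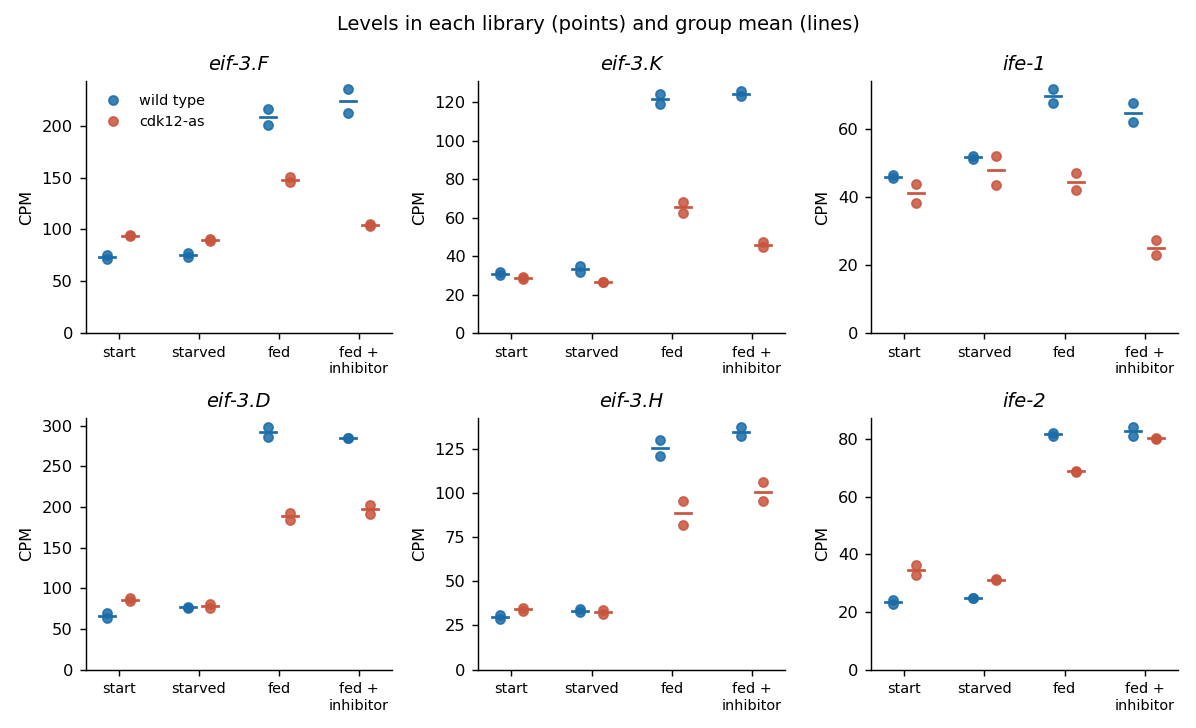
Levels in CPM of eif-3.F, eif-3.K, ife-1, eif-3.D, eif-3.H and ife-2 by condition in wild type (blue) and cdk12-as (red), with a point per library and a line at the group mean. In the upper row the cdk12-as level falls with inhibitor (eif-3.F from 150.1 and 146 to 103 and 105), and in the lower row it does not (eif-3.D 184 and 193 against 192 and 202).

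The position of each gene gave a further description. Neighbours were the nearest counted protein-coding genes on the same strand. The positions are close to those of coding parts, so a gap can hold untranslated sequence. Of all positioned genes with an upstream gap within 500 bases, 29.7% fell with inhibitor in cdk12-as. The share was 14.4% at 500 to 1000 bases and 4.55% beyond. Of the 29 translation factor genes 2 had a gap within 500 bases, 4 one of 500 to 1000 bases and 23 a larger one, and the 3 that fell were among the 6 closest. The gap was 287 bases for ife-1, 584 for eif-3.F and 813 for eif-3.K. Their upstream neighbours did not pass, dro-1 at -0.35 ± 0.13 log2 (adjusted p = 0.128), D2013.6 at -0.34 ± 0.23 (adjusted p = 0.437) and pqn-68 at 0.47 ± 0.17 (adjusted p = 0.105). By contrast eef-1B.2 lies 407 bases downstream of fcd-2, a DNA repair gene, which fell by 1.27 ± 0.08 log2 (adjusted p = 1.06e-06), while eef-1B.2 itself was at 0.33 ± 0.11. Downstream of the translation factor genes, 11 neighbours lay within 500 bases, of which 4 fell and none rose. Of all positioned genes that close to their upstream neighbour 29.7% fell, so the count is near that share. The 4 were evl-20 behind eif-3.G (-1.01), scp-1 behind eif-3.F (-0.94), spr-5 behind eif-3.J (-0.67) and Y23H5B.6 behind eif-3.I (-0.53). Of those 4 leading genes eif-3.F also fell, and the other 3 had log2 changes of -0.02 to 0.28. In wild type with inhibitor none of these neighbours passed.

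Other genes of translation were taken from a list of 33, of which 29 were counted and tested. With food 22 rose and 2 fell in wild type (median 1.11 log2), where 24.4% of all genes rose and 21.5% fell, and 17 rose and 2 fell in cdk12-as (median 0.64), where 15.6% rose and 12.1% fell. By total counts 14 rose and 1 fell in wild type and 8 rose and none fell in cdk12-as, and without rrn-2.1 in the totals 17 rose and 5 fell, and 17 rose and 4 fell. The helicase eIF4A, inf-1, rose from a mean of 106 to 467 CPM in wild type (2.14 ± 0.19 log2, adjusted p = 1.33e-06), eIF3a, egl-45, from 208 to 626 CPM (1.59 ± 0.10, adjusted p = 9.22e-08) and the ribosome recycling factor abce-1 from 63.8 to 254 CPM (1.99 ± 0.08, adjusted p = 8.13e-09). The largest rise in the list was that of tufm-1, the mitochondrial EF-Tu, from 68.2 to 314 CPM (2.20 ± 0.11, adjusted p = 2.29e-08). The hydroxylase dohh-1, which completes the hypusine that eIF5A carries, fell by 1.12 ± 0.10 log2 in wild type (adjusted p = 2.35e-06), and dhps-1, which makes the preceding step, rose by 1.40 ± 0.16 (adjusted p = 1.14e-05). The kinases efk-1 (-0.08), which acts on eEF2, and rsks-1 (0.08), the S6 kinase, did not pass. The smaller response to food in cdk12-as passed for 8 of the 29, egl-45 among them (-0.64 ± 0.14, adjusted p = 0.0162), where 2.93% of all genes passed in that direction. It passed for 13 with the replicate block, 4 without the low-count filter or by total counts without rrn-2.1, none by total counts, and 2 to 5 with any single library left out.

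With inhibitor in cdk12-as 6 of the 29 other genes fell and 3 rose, where 8.37% of all genes fell and 3.77% rose, and in wild type none passed. By total counts dhps-1 and let-363 fell and none rose. The falls were in dhps-1 (10.3 to 3.03 CPM, -1.74 ± 0.16 log2, adjusted p = 1.15e-05), iffb-1, which encodes the subunit-joining factor eIF5B (157 to 84.5 CPM, -0.90 ± 0.11, adjusted p = 9.36e-05), let-363, the TOR kinase (227 to 124 CPM, -0.87 ± 0.08, adjusted p = 1.24e-05), tufm-1 (-0.53), the TOR partner daf-15 (-0.46) and the eIF2 kinase gcn-2 (-0.35). The rises were in ncbp-1 of the nuclear cap-binding complex (0.54), dohh-1 (0.42) and the mitochondrial tsfm-1 (0.32). With any single library left out 0 or 1 of these rises and 4 or 6 of the falls passed, and the replicate block gave 6 rises and 8 falls. The difference from wild type passed for dhps-1 (-1.61 ± 0.22, adjusted p = 0.000487), let-363 (-0.80 ± 0.12, adjusted p = 0.000733) and iffb-1 (-0.84 ± 0.15, adjusted p = 0.0039), and for none of them by total counts. The eIF5A genes iff-1 and iff-2 did not pass with inhibitor (0.18 ± 0.20 and 0.20 ± 0.20 log2, adjusted p = 0.712 and 0.659).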

How the data were processed

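The authors deposited whole read counts per gene. Per the submitters' processing notes, build ce10 and the tools HISAT2, Trimmomatic, featureCounts, deepTools 3.2 and DESeq2 were used, in roles the notes do not state. Which program counted these reads, and with what strand setting, is not given in the sources used here, so paralogs and overlapping or antisense genes are uncertain. Per the labels' protocols the libraries were stranded, paired-end and from ribodepleted total RNA. Lines that name no gene were left out (reads without a feature 23.65 to 57.06% and ambiguous reads 0.83 to 10.7% of a column). Exon lengths and ce10 positions came from a second deposited table made by featureCounts 1.5.0-p2, per the file headers, in which 27 of the 29 lengths are multiples of 3, so they are close to coding lengths; its 32 columns of spliced-leader counts carry codes that no sample has, and they were left aside.

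Counts were fitted with edgeR 4.0.16 (R 4.3.3, limma 3.58.1): filterByExpr with minimum count 10, TMM, 1 model of 8 group means over 16 libraries, quasi-likelihood F tests adjusted over 15845 genes, called under 0.05. Residual degrees of freedom were 8, and the biological coefficient of variation was 17.3%. SE is the absolute log2 change over the square root of F. The fit was tested on simulated data. Alternatives were DESeq2 1.42.0, its size factors, total counts with and without rrn-2.1, no low-count filter, only the groups compared, a replicate block, and each library left out.

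Replicates 1 and 2 of a group differed beyond sampling noise (chi-square per degree of freedom 48.2 to 407). These values were taken over raw counts with rrn-2.1 included, so they hold its uneven share between replicates. Their size without rrn-2.1 was not computed. The labels say that an arrested culture was split between conditions, but not which numbers share one. The difference of replicate 1 and 2 correlated across genes in all 28 pairs of groups (r 0.141 to 0.536), within and between strains. Between strains, whose libraries come from different cultures, r was 0.141 to 0.444, and its source was not tested. Within a strain r was 0.209 to 0.536, and whether shared cultures had a part in it was not tested. The main fit has no term for the replicate number, which was fitted as a block, common to both strains, only in an alternative.

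The members, gene lists and tests were chosen with earlier results of these data known. Named in full are the 5 called members with the largest change in each comparison, the highest per length of each role, and the ife, iff and eEF1A genes.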

Additional observations from a re-analysis of the deposited data

Results flagged for a closer look

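The response to food differed between the strains, by a test of the difference itself, for 8 of the 29 genes, each with the smaller rise in cdk12-as. The log2 differences, cdk12-as minus wild type, were -0.75 for eif-3.F, -0.66 for eif-3.D, -0.58 for ife-2, -0.57 for eif-1, -0.57 for eif-3.K, -0.52 for erfa-1, -0.50 for eif-3.C and -0.44 for erfa-3. Of all genes tested 2.93% had a difference called in that direction and 3.79% in the other. With food fewer of all genes rose (15.6 against 24.4%) and fewer fell (12.1 against 21.5%) in cdk12-as than in wild type. Whether a smaller rise was particular to the 29 genes was not tested. With single libraries left out 3 to 7 genes passed, and eif-3.D, eif-3.F and ife-2 did so each time. Under scaling by total counts none of the 8 passed.

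The response to 3MB-PP1 differed between the strains by the same kind of test for 3 genes. The log2 differences were -0.72 for ife-1, -0.61 for eif-3.F and -0.54 for eif-3.K, where 6.02% of all genes tested had a difference called in that direction and 0.915% in the other. Under scaling by total counts none of the 3 passed.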

How the results depend on the processing

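Scaling by total counts had the largest effect: of 117 calls over the 12 comparisons 86 were lost under it. It left 12 rises with food in wild type, 8 in cdk12-as and 9 in cdk12-as with inhibitor, 1 fall with inhibitor, and 0 in the comparisons of strains, in both tests of a difference between strains and in wild-type starvation. By total counts without rrn-2.1 there were 3 smaller food responses in cdk12-as, 13 lower genes in fed cdk12-as, 1 higher in starved cdk12-as and 1 rise with starvation in wild type. DESeq2 called 2 rises with inhibitor in cdk12-as, 1 larger inhibitor response, 1 fall with starvation in cdk12-as, 1 fall in cdk12-as fed with inhibitor against starved and 1 higher gene in starved cdk12-as. Its size factors gave 4 smaller food responses and 1 higher gene in starved cdk12-as. Without the low-count filter there were 4 smaller food responses, 1 fall in cdk12-as fed with inhibitor against starved, 1 rise with starvation in wild type and 1 higher gene in starved cdk12-as. Only the groups compared gave 1 fall in cdk12-as fed with inhibitor against starved, 6 higher genes at the start and 1 lower in starved cdk12-as. With the replicate block there were 15 smaller food responses, 8 rises with inhibitor, 3 falls with starvation in cdk12-as, 1 lower gene at the start and 4 lower in starved cdk12-as.

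With single libraries left out, 22 to 24 genes rose with food in wild type and 15 to 19 in cdk12-as, 3 to 7 food responses were smaller, 3 to 3 genes fell with inhibitor, and 2 to 3 inhibitor responses were smaller. Against starved larvae 19 to 21 rose and 1 to 2 fell in cdk12-as fed with inhibitor, and 0 to 1 rose with starvation in wild type. Between strains 2 to 9 were higher at the start, 0 to 1 higher and 0 to 2 lower in starved larvae, and 12 to 18 lower in fed larvae. A group with a library left out holds 1 sample, which is assumed to vary like the others. Of 4060 values of single genes none reversed as a call. The block ended no call in any comparison, and beyond the calls it added above and in the results it changed none. With 2 libraries a group and read counts without molecular identifiers, small changes could not be resolved.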
